A study of Rattus norvegicus with 6 samples.

Results

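The mitochondrial genome is a small circular DNA, present in many copies per cell, that carries genes for core subunits of the respiratory chain and of ATP synthase. The genes described here encode 10 of them: Nd1, Nd2, Nd4 and Nd5 of complex I, Cyb of complex III, Co1, Co2 and Co3 of complex IV, and Atp6 and Atp8 of complex V. They were taken by identifier from a list of 10, drawn up with earlier results of these data known, and all 10 were among the 21417 genes of the deposited table and among the 13591 genes whose mean reached 1 FPKM (counted fragments, divided by gene length and by library size). The libraries came from colon cut at the anastomosis of male Sprague-Dawley rats, an outbred strain with no engineered allele named, 2 weeks after surgery. For 3 libraries the bowel ends had been joined end to end by magnetic compression anastomosis (MCA), in which magnets press the ends together, and for 3 control libraries by conventional suture. The labels describe biological replicates, give no age, and do not say whether a library pooled animals or which layers of the bowel wall were cut.

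Mitochondrial genes on the heavy strand, to which all members belong, are transcribed as a long precursor that is cut at the transfer RNAs into single messengers. Complex I takes electrons from NADH, complex III passes them to cytochrome c, complex IV hands them to oxygen, and complex V uses the proton gradient to make ATP. The colon draws on this chain in epithelium, which burns short-chain fatty acids, and in smooth muscle. In bulk tissue, more cells of a type and more RNA per cell cannot be told apart.

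The deposited table holds Ensembl identifiers without symbols, and the names used here came with the list of identifiers. The list did not say which of ENSRNOG00000031033 and ENSRNOG00000031979 was Nd2 and which Atp6. The FPKM values yielded the gene length behind each row, 1039 bases for the first and 681 bases for the second, and since Nd2 is the longer gene the first was taken as Nd2. The other recovered lengths were 955 bases for Nd1 (ENSRNOG00000030644), 1378 for Nd4 (ENSRNOG00000029707), 1830 for Nd5 (ENSRNOG00000029971), 1143 for Cyb (ENSRNOG00000031766), 1545 for Co1 (ENSRNOG00000034234), 684 for Co2 (ENSRNOG00000030371), 784 for Co3 (ENSRNOG00000030700) and 204 for Atp8 (ENSRNOG00000033299). From Nd5 as the longest to Atp8 as the shortest, the lengths fell in the order known for these genes in mammals.

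The libraries held between 14867454 and 15791079 counted fragments. MCA replicate 2 stood apart, its mean Spearman correlation with the others, taken across genes, being 0.85, where the remaining libraries had 0.88 to 0.926. No marker of a bowel cell type was analysed here, because identifiers could not be paired with symbols, so the tissue label was not checked against its markers.

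The 10 genes filled a large and uneven part of every library. Their summed share of total FPKM was 20.0%, 31.1% and 34.1% in the MCA libraries, in order of replicate number. The suture libraries gave 18.8%, 37.9% and 20.7%. Suture replicate 2, MCA replicate 3 and MCA replicate 2 were high and the other 3 libraries low, so that each group held both kinds and the groups overlapped. The MCA libraries averaged 28.4% ± 7.46 and the suture libraries 25.8% ± 10.5 (SD, n = 3 each), and the difference of 2.60 percentage points was smaller than either SD. Leaving out MCA replicate 1, 2 or 3 gave a difference of 6.82, 1.24 or -0.26. Leaving out suture replicate 1, 2 or 3 gave -0.89, 8.63 or 0.05, so its sign hung on single libraries of either group.

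**Figure D1:**
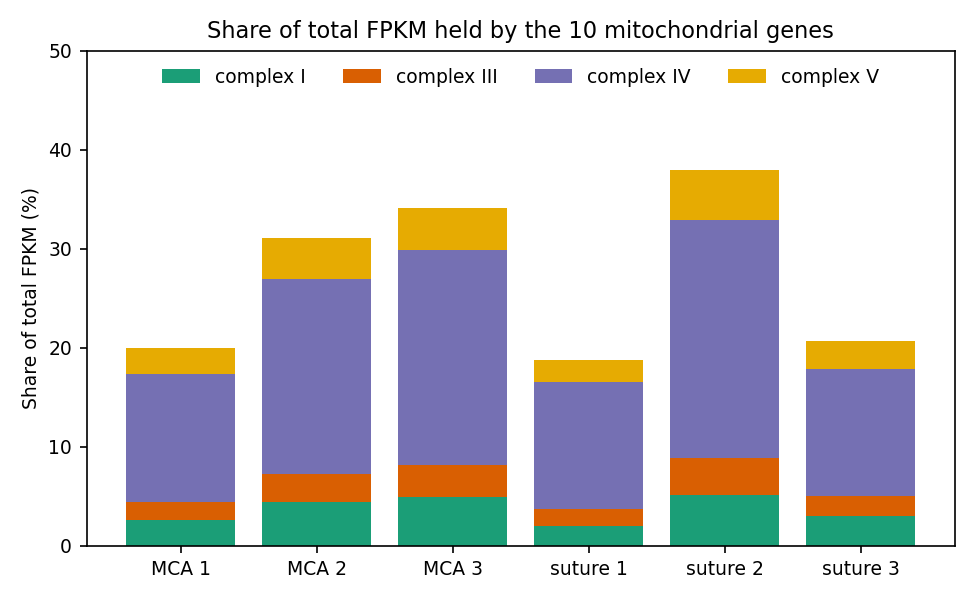
Share of total FPKM (vertical axis, percent) held by the 10 mitochondrial genes in each of the 3 MCA and 3 suture libraries, 1 bar per library, stacked by respiratory complex. The bars reach 18.8% to 37.9%, and the lowest and the highest both belong to suture libraries.

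Counted as fragments, without the correction for length, the genes took 12.0%, 18.5% and 23.3% of the MCA libraries and 11.4%, 24.0% and 12.6% of the suture libraries. The 95% Wilson intervals of these fragment shares reached at most 0.0212 percentage points to either side, so counting error was far below the spread between libraries. These intervals cover counting error only. FPKM of all other genes is read against the total of counted fragments. Of that total the members took 11.4% in suture replicate 1 and 24.0% in suture replicate 2. Summed FPKM is a different total. Of it, the part left to the other genes ran from 62.1% in suture replicate 2 to 81.2% in suture replicate 1, a factor of 1.31. When the FPKM values were rescaled to a common total of the genes outside the members, the median over all genes of the log2 fold went from -0.02 to 0.00.

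Complex IV genes had the highest levels. Co1, the catalytic subunit of cytochrome c oxidase, stood at 29155, 44920 and 55876 FPKM in MCA replicates 1 to 3 and at 29819, 56737 and 29381 FPKM in suture replicates 1 to 3. It was the most abundant gene of the table in every library. Co3, a core subunit of the same enzyme, ranked next in all 6 libraries, with 27069, 38625 and 52775 FPKM with MCA and 26102, 53491 and 28056 FPKM with suture. Co2, which receives electrons from cytochrome c, ranked behind it in all 6, with 20685, 31321 and 37299 FPKM with MCA and 20511, 40799 and 19826 FPKM with suture. In each of these genes, 1 suture library was close to the highest MCA library and the others were close to the lowest one.

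Atp6, the subunit of ATP synthase that forms the proton path, followed with 15903, 24614 and 28409 FPKM with MCA and 13445, 31079 and 17252 FPKM with suture. Cyb, the cytochrome b of complex III, had 10827, 16736 and 21376 FPKM with MCA and 10112, 23324 and 12254 FPKM with suture. Both were lowest in suture replicate 1 and highest in suture replicate 2, so the suture range enclosed the MCA range.

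The listed complex I genes lay lower and were less alike in level. Nd1, which lies where the quinone binds, had 7830, 12919 and 16234 FPKM with MCA and 5574, 15426 and 8677 FPKM with suture. Nd2, a proton-pumping membrane subunit, had 6486, 9981 and 13575 FPKM with MCA and 5709, 13541 and 7762 FPKM with suture. For these genes, MCA replicate 3 and suture replicate 2 were the highest libraries and suture replicate 1 the lowest. Nd5, another proton-pumping subunit, had 1034, 2589 and 3263 FPKM with MCA and 746, 3144 and 1702 FPKM with suture. Nd4, a related subunit, had only 105, 276 and 259 FPKM with MCA and 129, 325 and 155 FPKM with suture. Between 2276 and 6997 fragments stood behind each Nd4 value, a counting error of at most 2.10%. It ranked between 143 and 729 among all genes, while the 7 most abundant members never ranked below 9.

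Atp8, the small subunit of ATP synthase whose reading frame overlaps that of Atp6, was the lowest member. Its level was 2.48, 4.29 and 10.4 FPKM with MCA and 1.89, 7.53 and 3.90 FPKM with suture. Only 8, 13 and 33 fragments stood behind the MCA values and 6, 24 and 12 behind the suture values. The exact 95% Poisson interval ran from 0.694 to 4.11 FPKM in suture replicate 1 and from 7.14 to 14.6 FPKM in MCA replicate 3. Atp6 exceeded Atp8 by a factor of 2738 to 7112 per unit of length within a library. The counting program and its handling of fragments that overlap 2 genes, or that also match copies of mitochondrial DNA in the nuclear genome, are not stated in the sources used here. The levels of Atp8, Atp6 and Nd4, whose start overlaps a neighbouring gene, are therefore uncertain as measures of the transcript, and the part of such handling in the low values was not tested.

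**Figure D2:**
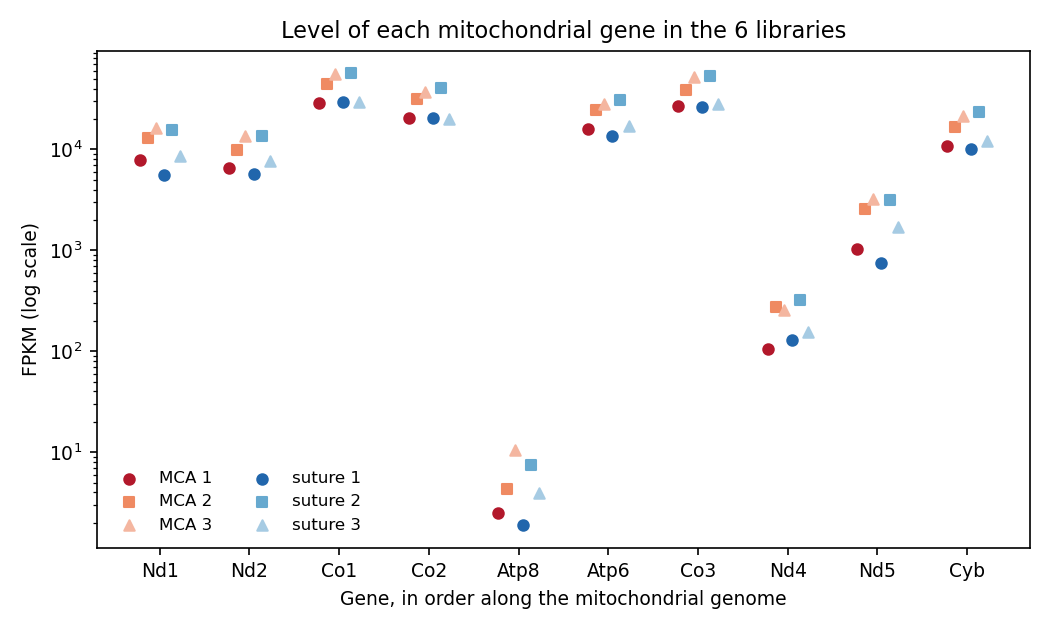
FPKM on a log scale (vertical axis) of each gene, placed in the order of the genes along the mitochondrial genome, with 1 point per library (red shades MCA, blue shades suture, marker shape for the replicate). Co1, Co2, Co3, Atp6, Cyb, Nd1 and Nd2 lie between 5574 and 56737 FPKM, Nd5 and Nd4 lie lower, and Atp8 lies at 1.89 to 10.4 FPKM.

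The order of levels was Co1, Co3, Co2, Atp6, Cyb, Nd1, Nd2, Nd5, Nd4 and Atp8 by the mean over 6 libraries, and it held within every library but one: in suture replicate 1 the ratio of Nd1 to Nd2 was 0.976, against 1.12 to 1.29 in the others. Co1 and Co3 were the closest of the neighbours that kept their order, with a ratio of 1.05 to 1.16 within a library, although their ranges across libraries overlapped almost fully. The ratio was 1.23 to 1.42 for Co3 to Co2, 1.15 to 1.53 for Co2 to Atp6, 1.33 to 1.47 for Atp6 to Cyb and 1.30 to 1.81 for Cyb to Nd1. Larger steps separated Nd2 from Nd5, with a ratio of 3.86 to 7.65, Nd5 from Nd4, with 5.80 to 12.6, and Nd4 from Atp8, with 24.9 to 68.1. Level did not follow position: Nd1 and Nd2, the members nearest the start of the precursor, were below Co1, Co2, Atp6 and Co3, which come after them, and Cyb, the last of the order, was above Nd4 and Nd5.

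The members ran together from library to library. Suture replicate 2, MCA replicate 3 and MCA replicate 2 were above the other 3 libraries in all 10 genes. For Atp8 this rested on 13 fragments in MCA replicate 2 against 12 in suture replicate 3, which counting error does not separate. The log2 ratio of 2 members had an SD over the 6 libraries of 0.266 in the median of the 45 pairs, which is a factor of 1.20. The 1225 pairs among the 50 most abundant genes outside the members had a median SD of 1.056, a factor of 2.08, and 8.98% of those pairs were below the median of the members. These values describe the 6 libraries, and pairs that share a gene are not independent. Without symbols, the genes outside the members were not screened for other mitochondrial genes, here or in the rescaling.

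**Figure D3:**
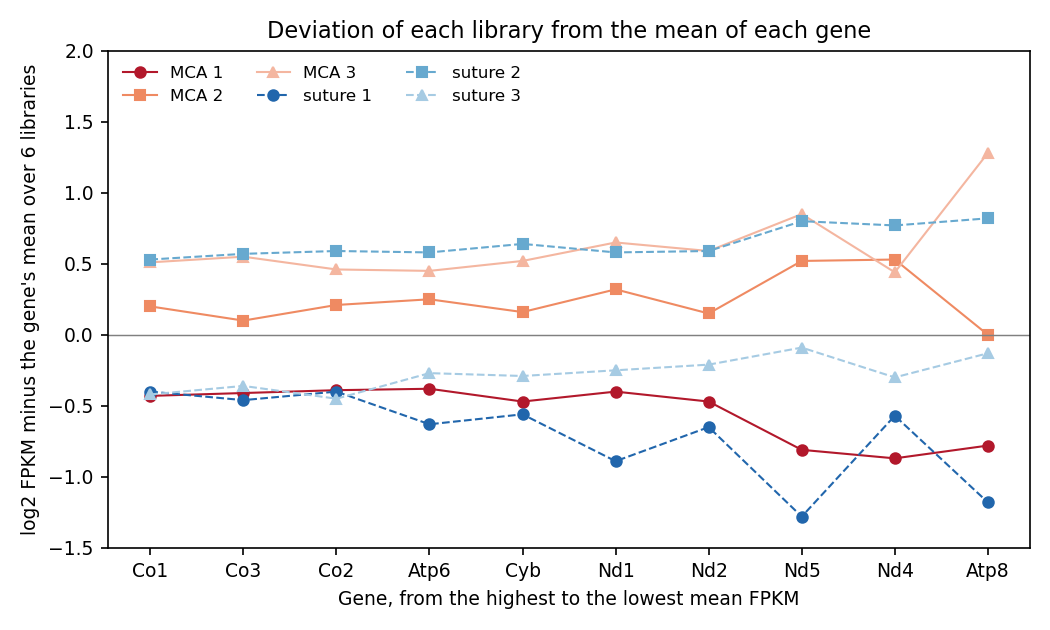
Log2 FPKM of each library minus the gene's mean over the 6 libraries (vertical axis), with the genes from the highest to the lowest mean level along the horizontal axis and 1 line per library (solid MCA, dashed suture). The lines change little from Co1 to Cyb and spread at Nd5, Nd4 and Atp8, and MCA replicate 2, MCA replicate 3 and suture replicate 2 stay above the other 3 throughout.

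The closest pair was Co1 and Co2, with an SD of 0.041 log2 units, and their ratio lay between 1.39 and 1.50 in all libraries. The other pairs within complex IV had an SD of 0.064 (Co1 and Co3) and 0.081 (Co2 and Co3). Pairs across complexes ran from 0.068 for Nd2 and Cyb and 0.071 for Cyb and Atp6 upwards, with 0.109, 0.131, 0.157 and 0.249 for Co1 with Cyb, Atp6, Nd2 and Nd1. Within complex I, Nd1 and Nd2 had 0.138. Among the 7 most abundant members the median was 0.115 over 21 pairs. Nd5, Nd4 and Atp8 ran less closely with the rest, with medians of 0.427, 0.289 and 0.505 over the 9 pairs of each. Atp8 rests on few fragments, with a counting error of 17.4% to 40.8%, whereas Nd5 had between 21246 and 93086 fragments per library.

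**Figure D4:**
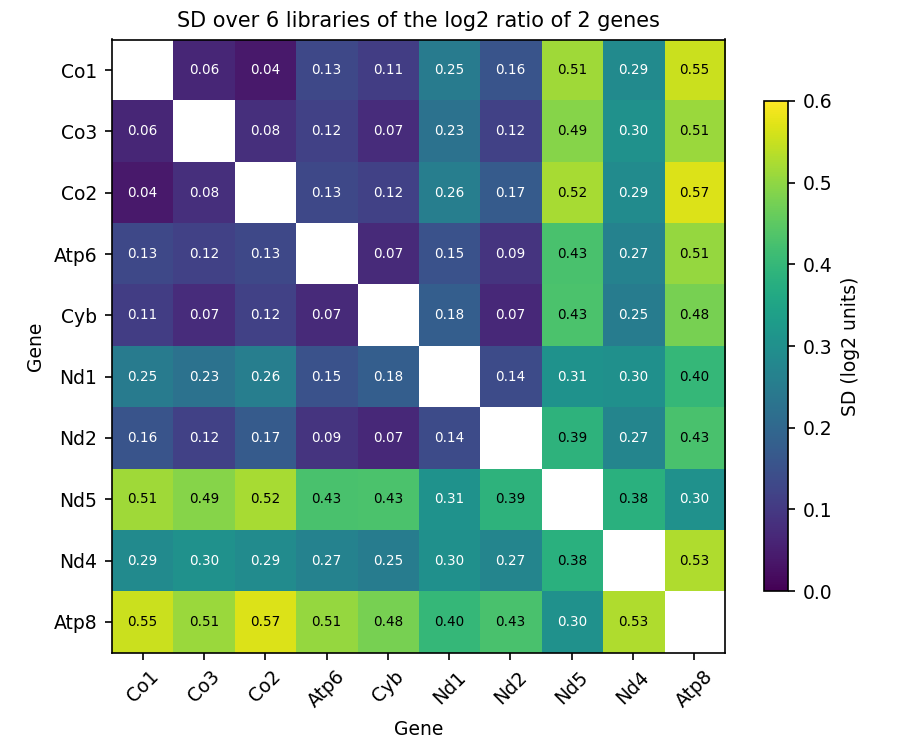
SD over the 6 libraries of the log2 ratio of 2 genes (colour scale and printed value, log2 units) for all 45 pairs of the 10 genes, ordered from the highest to the lowest mean level on both axes. Pairs within the first 7 genes lie between 0.041 and 0.256, and pairs with Nd5 or Atp8 between 0.303 and 0.569.

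Nd5 moved over a wider range than the genes of complex IV. Its highest library was 4.37 times its lowest, against 1.95 for Co1, 2.06 for Co2 and 2.05 for Co3. Relative to Nd1, Nd5 stood at 0.132 in MCA replicate 1 and 0.134 in suture replicate 1, and at 0.196 to 0.204 in the other 4 libraries. Relative to Co1 it stood at 0.0355 and 0.0250 in those libraries and at 0.0554 to 0.0584 in the others. Suture replicate 3 was among the low libraries in the summed share and had a Nd5 to Nd1 ratio of 0.196, so this ratio did not follow the share in every library. The ratio of Nd4 to Nd5 was 0.172 in suture replicate 1 and 0.0793 to 0.107 in the others.

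Within the summed FPKM of the members, complex IV held 64.6%, 63.1% and 63.7% in MCA replicates 1 to 3 and 68.2%, 63.5% and 61.8% in suture replicates 1 to 3. Complex I held 13.0%, 14.2% and 14.5% with MCA and 10.8%, 13.6% and 14.6% with suture. Suture replicate 1 thus had the largest part from complex IV and the smallest from complex I of all libraries. Complex IV averaged 63.8% ± 0.73 in MCA libraries and 64.5% ± 3.30 in suture libraries (SD, n = 3 each), a difference of -0.67 percentage points that turned to 1.17 without suture replicate 1. Complex I averaged 13.9% ± 0.82 and 13.0% ± 1.96 in the same order (SD, n = 3 each). Cyb made up 9.09% to 9.33% with MCA and 9.02% to 9.81% with suture, and complex V made up 12.4% to 13.5% and 12.0% to 13.8%. The groups overlapped for each complex and each of the 10 genes.

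The ratio of 2 members separated the groups in 2 of the 45 pairs, which is 4.44%, and both involved Nd1. Among pairs of the 50 most abundant genes outside the members, 2.94% had ratios that did not overlap between the groups. The ratio of Nd1 to Nd2 was 1.21, 1.29 and 1.20 with MCA and 0.976, 1.14 and 1.12 with suture. The ratio of Nd1 to Cyb was 0.723, 0.772 and 0.759 with MCA and 0.551, 0.661 and 0.708 with suture. These pairs share Nd1 and were picked out of the 45 after their values were seen, and they were not tested.

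In the comparison of MCA with suture, no difference beyond the spread between libraries was detected for any of these genes. Mean FPKM was higher with MCA for all 10, by a ratio of means between 1.05 for Nd4 and 1.29 for Atp8, but the groups overlapped in 10 of 10. By limma, 0 of the 10 had an adjusted p under 0.05 after Benjamini-Hochberg correction over all 13591 genes, and 0% of all genes did. On recovered fragments, limma-voom also called 0 of the 10. At an unadjusted p under 0.05, 0 of the 10 genes and 4.91% of all genes were called by limma. The groups did not overlap in 0 of the 10 genes and in 8.70% of all genes. The median log2 fold of the members was 0.18, and that of all genes tested was -0.02. The members run together, so their signs are not independent of one another.

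By role, complex IV gave a log2 fold of 0.19 for Co1, 0.18 for Co2 and 0.16 for Co3, on the log2(FPKM + 1) scale. Atp6 had 0.21, Cyb 0.14 and Nd2 0.18. Nd1 averaged 12328 ± 4233 FPKM in MCA and 9892 ± 5038 FPKM in suture libraries (SD, n = 3 each). Its log2 fold was 0.38 with a 95% interval of -1.12 to 1.88 and an adjusted p of 1.00 (limma). Nd5 averaged 2295 ± 1143 FPKM in MCA and 1864 ± 1207 FPKM in suture libraries (SD, n = 3 each), and its log2 fold was 0.38 with an interval of -1.25 to 2.01. Co1 averaged 43317 ± 13432 FPKM in MCA and 38646 ± 15669 FPKM in suture libraries (SD, n = 3 each), with an interval of -1.53 to 1.90. Nd4 had the smallest log2 fold, 0.07, and Atp8 had 0.27 on few fragments.

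For 9 of the 10 genes the sign of the difference turned when a single library was left out, and Nd1 was the exception, at 0.03 to 0.76 over the 6 fits. Some turns were slight: without MCA replicate 3, Co1 had -0.02 and Co2 a value below 0 that rounded to 0.00. Without suture replicate 1 the log2 fold was below 0 for 7 of the 10 genes, and the median of the members was -0.08. Without MCA replicate 3 it was again below 0 for 7, with a median of -0.05. Without suture replicate 2 or MCA replicate 1, the high and the low library of their groups, the median rose to 0.52 and 0.46. Without MCA replicate 2, the library that stood apart, it was 0.15, and without suture replicate 3 it was 0.08. With array weights, which weigh libraries by their fit, all 10 log2 folds were below 0, with a median of -0.13.

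**Figure D5:**
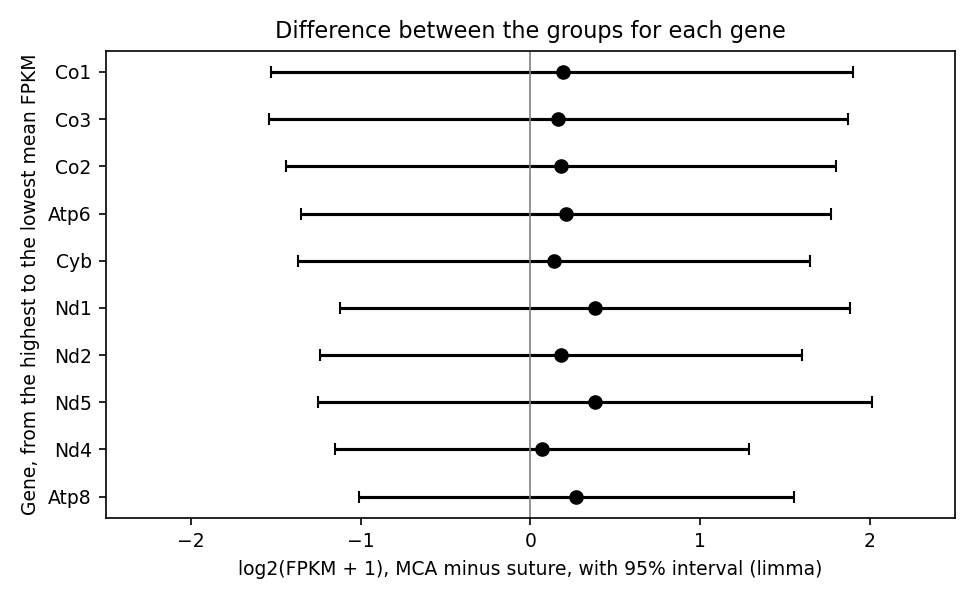
Difference in log2(FPKM + 1) between MCA and suture (horizontal axis, MCA minus suture) for each gene, with 95% intervals from limma (3 libraries per group). All 10 points lie between 0.07 and 0.38 and every interval crosses 0.

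The limma intervals for these genes were wider than for most. Half-widths of the 95% interval were 1.22 to 1.72 log2 units for the members. The median was 0.71 for all genes tested and 0.98 for the 670 other genes at 100 FPKM or more. The fit draws each gene's variance towards a trend over all genes. The widths therefore do not follow each gene's own spread alone. Co1 had an SD of log2 FPKM over the 6 libraries of 0.47 and a half-width of 1.72, and Atp8 had 0.93 and 1.28. For all 10 genes the interval contained a 2-fold difference, higher as well as lower. The interval of Co1 spanned from 0.35 to 3.74 as a ratio. Within the MCA group the highest library exceeded the lowest by a median factor of 2.02 over the members, and within the suture group by 2.34. For all genes tested and above 0 in the group, these factors were 1.76 and 1.67.

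Outside the members, the genes that kept closest to their mean log2(FPKM + 1) over the 6 libraries were ENSRNOG00000034177 and ENSRNOG00000004863, for which no symbol was at hand. The difference of the first from the members' mean had an SD of 0.102, with levels of 2.09, 4.44 and 4.82 FPKM with MCA and 1.83, 6.05 and 2.59 FPKM with suture. The second had an SD of 0.111, with 0.918, 1.95 and 3.01 FPKM with MCA and 0.521, 2.51 and 1.27 FPKM with suture. The median SD over the 13581 genes compared was 0.74, and among the members it ran from 0.059 for Nd2 to 0.358 for Nd5. Of the 13581 genes, all outside the members, 88 lay closer to the members' mean than Nd5 did. Each member was part of that mean and the outside genes were not, so their SDs are not strictly comparable. Both named genes were thinly covered, with 19 to 63 and 19 to 110 fragments per library. They were picked as the smallest SDs of 13581 genes, and neither likeness was tested against counting error. Without the pseudocount, which narrows the range of low genes, their SD was 0.164 and 0.414, so the likeness of the second rested on it.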

How the data were processed

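Per the labels' protocols, TRIzol was used for total RNA, the NEBNext Ultra kit for libraries and a DNBSEQ-T7 for sequencing, and the authors deposited normalized FPKM. The submitters' processing notes name limma without a role. Aligner, counting program, build, annotation, strand setting and RNA selection are not stated in the sources used here. Library totals, gene lengths and whole fragments were recovered from the FPKM values: the commonest ratio among genes under 0.5 FPKM gives the ratio of totals, and all 21417 genes then gave whole fragments within 1e-06. A gene whose fragments and length share a factor would be recovered too small. No library was a copy of another: the lowest chi-square per gene over 15 pairs was 44.3. The procedures were tested on simulated data.

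The 13591 genes whose mean over the 6 libraries reached 1 FPKM were fitted as log2(FPKM + 1) with limma 3.58.1 in R 4.3.3 (no covariate, mean-variance trend, two-sided, Benjamini-Hochberg, threshold 0.05). Shares, ratios and composition over the members were described without a test. Ratios of members used FPKM without a pseudocount. Python 3.11.15 with numpy 2.4.6, pandas 2.3.3, scipy 1.17.1 and matplotlib 3.10.9 was used. Members, lists and measures were chosen with earlier results of these data known. All members were named. Outside genes were named by the smallest SD of their difference from the members' mean, at most 2 without symbols. None of the 21417 identifiers matched the reference table of 47357 genes (0 matches), so the lists of nuclear respiratory genes and cell type markers are not analysed here. P-values weigh the difference between the groups against the spread between libraries, as moderated by limma over all genes. That spread is between rats only if each library is a separate rat.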

Additional observations from a re-analysis of the deposited data

How the results depend on the processing

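No mitochondrial gene passed the adjusted threshold in any of the 16 other fits: pseudocounts of 0.1 and 0.5, a minimum mean of 5 FPKM or none, rescaling to the genes outside the members, median-of-ratios scaling, array weights, the replicate block, no trend, limma-voom on recovered fragments, and each library left out in turn. The members' smallest adjusted p over these fits was 0.756, with array weights, where 35 genes of the table passed. Array weights turned every sign, with log2 folds of -0.03 for Nd1, -0.17 for Nd2, -0.50 for Nd4, -0.37 for Nd5, -0.17 for Cyb, -0.08 for Co1, -0.05 for Co2, -0.09 for Co3, -0.10 for Atp6 and -0.24 for Atp8. The smallest weight, 0.29, went to MCA replicate 2 and the largest, 4.31, to MCA replicate 1, a library low in mitochondrial RNA. Leaving out 1 library at a time gave ranges of 0.03 to 0.76 for Nd1, -0.10 to 0.52 for Nd2, -0.20 to 0.52 for Nd4, -0.17 to 0.87 for Nd5, -0.11 to 0.50 for Cyb, -0.02 to 0.50 for Co1, 0.00 to 0.52 for Co2, -0.07 to 0.49 for Co3, -0.05 to 0.55 for Atp6 and -0.20 to 0.66 for Atp8. With the replicate number as a block 0 of the 10 were called. The members' median log2 fold stayed at 0.18, which a block cannot change in this balanced design. The labels do not say that a number pairs animals, and deviations of same-numbered libraries correlated at 0.42, 0.53 and -0.0016. Differently numbered libraries correlated at -0.47 to 0.28. The deviations were taken from the mean of 3 libraries per group, so these correlations are not independent. The median SD of member pairs was 0.214 to 0.297 when a library was left out and 0.202 without Atp8. Without Nd4, Nd5 and Atp8, an alternative chosen after seeing the data, it was 0.115. The check of likeness without a pseudocount was also chosen then. Alternatives for the nuclear genes were not run. Counting error was 17.4% to 40.8% for Atp8 and at most 2.10% for the other members.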

Other observations

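In MCA replicate 1 and suture replicate 1, Nd5 stood at -0.81 and -1.28 log2 units from its own mean. This was lower than any of the 7 most abundant members, whose lowest values were -0.47 and -0.89. The other low members shared it in part: Nd4 stood at -0.87 and -0.57, and Atp8, on few fragments, at -0.78 and -1.18. Suture replicate 1 also had the lowest ratio of Nd1 to Co1, 0.187, against 0.269 to 0.295 in the other 5 libraries. The counting error of Nd1 and Nd5 was below 1% in every library. The labels give no batch for the libraries, and a cause was not tested.

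The low level of Nd4 stood in every library. Co1, which comes from the same precursor, exceeded Nd4 by a factor of 163 to 279 per unit of length. The handling of overlapping fragments is not stated, so the Nd4 level is uncertain as a measure of the transcript. Nd5, which follows Nd4 on the precursor, exceeded it by a factor of 5.80 to 12.6.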
